A study of Homo sapiens with 18 samples.

Results

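The comparison set SP100 knockout cells against wild-type cells, both kept in interferon for 12 h. Its members were chosen by group label: 6 of the 18 libraries of the study, 3 of knockout (KO) and 3 of wild type (WT). The cells were NIKS, an established line of immortalized human keratinocytes grown on lethally irradiated J2/3T3 mouse fibroblasts, and all 6 cultures received human interferon alpha 2a at 25 ng/mL. The other groups held the same genotypes untreated (0 h) or after 48 h of the same interferon, with 3 libraries each. The table's column names gave a single line per genotype, called Vec2 for WT and KO5 for KO. Genotype and line therefore cannot be told apart. How the knockout was made was not given in the sources used here. The labels called the 3 libraries of a group biological replicates without saying what separated them, so the p-values measure the spread between these libraries only.

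SP100 is a component of PML nuclear bodies, small nuclear structures built on the PML protein that also hold DAXX, ATRX and, after interferon, the histone chaperone HIRA. It is known as an interferon-inducible protein that binds chromatin and restricts the genomes of incoming DNA viruses, among them papillomaviruses, which infect keratinocytes. Interferon alpha acts through the receptor chains IFNAR1 and IFNAR2 and the kinases JAK1 and TYK2, which act on transcription factors of the STAT family. STAT2 and IRF9 are part of the complex that binds interferon-stimulated response elements in the promoters of its target genes.

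Values are RPKM (read density per kilobase of gene, corrected for library size) as deposited, and errors are SD with n = 3. A difference is KO minus WT on the scale of log2(RPKM + 1), which understates the change of low genes. A gene was called when its p-value from limma, with Benjamini-Hochberg adjustment across the 13280 genes tested, was under 0.05. Relative depth, recovered from low values, was 0.949 ± 0.0805 in WT and 1.05 ± 0.108 in KO, a 1.34-fold range over the 6 libraries. The number of reads was not given in the sources used here. Libraries of the same genotype correlated at 0.988 to 0.989 across genes and those of different genotype at 0.985 to 0.988. All 9 keratinocyte markers were present, with a summed level of 22600 to 23530 RPKM in WT and 21090 to 23880 in KO. Of 24 fibroblast and mesenchymal genes 15 were in the table, none at 0 throughout either group, and their sum was lower in KO (714.2 to 777.4 RPKM) than in WT (903.9 to 923.8). Of 16 melanocyte, endothelial and immune markers 4 were in the table, summing to 54.7 to 60.36 RPKM in WT and 46.21 to 52.72 in KO.

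After 12 h of interferon, 481 genes differed between the genotypes, 3.62% of those tested. Of these, 213 were higher in KO (1.6%) and 268 lower (2.02%). Most differences were modest. The median size among called genes was 0.41 on the log2 scale, with quartiles of 0.26 and 0.66, and the smallest was 0.13. A change of at least 2-fold was seen in 32 genes (0.241%), 13 of them higher and 19 lower in KO. Called genes had a median level of 13.5 RPKM, against 11.4 over all genes tested. The 3 KO and 3 WT libraries did not overlap in 480 of the called genes, and in 2787 (21%) of all genes tested. The mean crossed 1 RPKM upward from WT to KO in 15 called genes and downward in 33. Across all genes the median difference was 0.01.

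The count of called genes rested on the pooled estimate of spread. KO against WT results at 12 h were recomputed under 12 alternatives. Of these, 6 changed processing or model and 6 left out a library of this comparison in turn. A gene with a mean under 5 RPKM had 11, since 1 alternative does not test it. Changes between times had more alternatives, the same 6 kinds and the omission of each of the 12 libraries that enter them. A fit on the 6 libraries alone called 213 genes, 190 of them among the 481. Omission of WT replicate 1 left 311 calls and omission of KO replicate 1 left 315. By an unadjusted p under 0.05, 2256 of the 13280 genes tested differed.

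**Figure D1:**
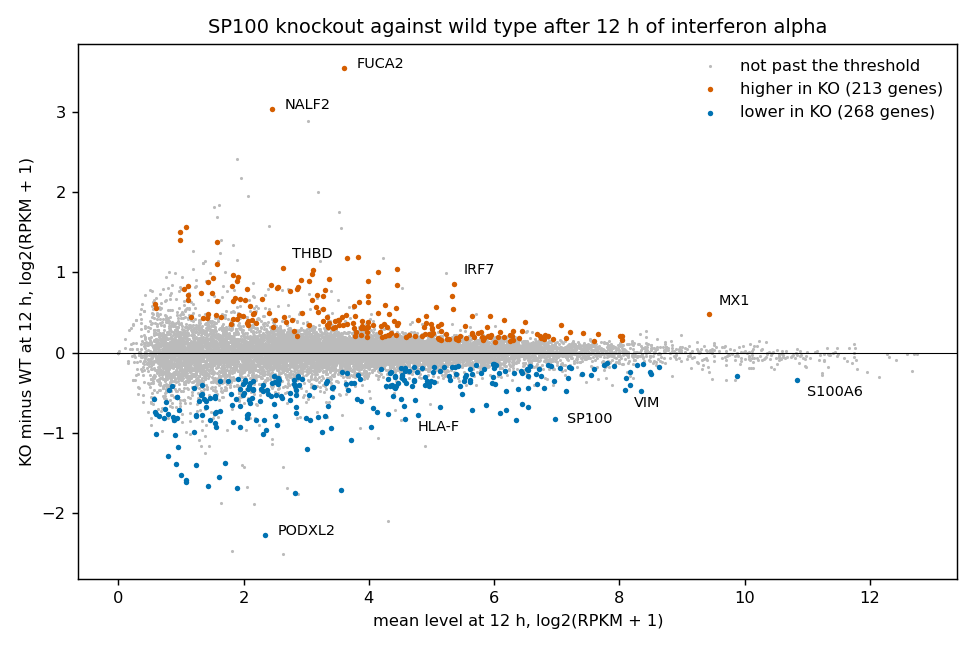
Difference between KO and WT at 12 h of interferon (vertical axis, log2(RPKM + 1)) against the mean level of the 6 libraries (horizontal axis, log2(RPKM + 1)) for the 13280 genes tested, 1 point per gene. The 213 genes called higher in KO are orange, the 268 called lower are blue, and FUCA2 and NALF2 stand above a difference of 3.

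SP100 RNA was lower in the knockout but far from absent. SP100 (ENSG00000067066) measured 155.5, 172 and 151 RPKM in the 3 WT libraries and 93.2, 86.5 and 87.5 RPKM in the 3 KO libraries. Every KO library lay below every WT library. The difference was -0.83 (SE 0.059, adjusted p = 3.61e-07), and it was also called at 0 h (-0.94) and 48 h (-1.08). RPKM sums all transcripts of a gene, so this level does not say which SP100 transcripts or proteins the knockout still made. The related nuclear body proteins SP110 and SP140L, encoded beside SP100 on chromosome 2, were not called, at 88.9 RPKM in WT and 96.1 in KO for SP110 and at 16.6 RPKM in both genotypes for SP140L.

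The partners of SP100 in the nuclear body had no called difference at the RNA level. None of 20 PML nuclear body and HIRA chaperone genes was called at 12 h. An unadjusted p under 0.05 was seen in 1 of the 20, against 2256 of all 13280 genes tested. Differences of the 20 ran from -0.08 to 0.14 with a median of 0.02. PML, the scaffold of the body, measured 76.7, 67.8 and 76.0 RPKM in WT and 66.8, 79.2 and 72.7 RPKM in KO, and the groups overlapped. DAXX, a histone H3.3 chaperone, averaged 29.3 ± 1.37 RPKM in WT and 32.5 ± 2.96 in KO (adjusted p = 0.443). ATRX, the chromatin remodeler that works with DAXX, averaged 9.64 ± 0.885 and 10.2 ± 0.721 RPKM (adjusted p = 0.801). HIRA averaged 20.4 ± 0.489 and 20.8 ± 0.953 RPKM (adjusted p = 0.91). Among 19 genes for HP1 proteins, histone H3 lysine 9 methylation and DNA methylation, CBX3 (HP1 gamma) was the only call, 182 ± 6.35 RPKM in WT and 202 ± 6.57 in KO, a difference of 0.15 (adjusted p = 0.0354). That call was lost without WT replicate 1 or 3 or KO replicate 1 or 2 (adjusted p up to 0.162), and with the replicate number as a block (0.0607).

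Most interferon-stimulated genes were not called different between the genotypes at 12 h. Of 131 genes in 8 interferon lists, 119 were tested, and 109 of them were not called. The 10 called genes made 8.40% of the lists, against 3.62% of all genes tested. MX1, IRF7 and CXCL1 were higher in KO. IFITM2, IFITM3, APOBEC3C, APOBEC3F, HERC5, STING1 and HLA-F were lower. The median difference over the lists was -0.04, against 0.01 over all genes, and the groups did not overlap in 49 of the 119 (41.2%), against 21% of all genes. By an unadjusted p under 0.05, 39 of the 119 differed, against 2256 of all 13280. Without WT replicate 2 the higher count rose to 5, with the exonuclease PNPT1 (0.21) and the DNA sensor IFI16 (0.15) added. The same omission added lower calls for the RNA sensor DHX58 (-0.53, adjusted p = 0.0299) and for UBA7, the activating enzyme of ISG15 conjugation (-0.48, adjusted p = 0.0319). Among all genes, 138 rose at least 2-fold in WT between 0 and 48 h, with an adjusted p under 0.05. The means of that comparison use none of the 12 h libraries, but its estimate of spread was shared with them. At 12 h, 5 of these 138 genes were called higher and 10 lower in KO, or 10.9%, against 3.55% of the other 13142 genes. The lower genes include SP100 itself (-0.83), the target of the knockout.

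Promoter sequence is shown for the called interferon genes whose window held the response element core, because interferon is known to act through this element. The windows came from the RefSeq promoter table of build GRCh38.p14, which takes 250 bases before and 50 after each start. They are printed 5′ to 3′ along the transcribed strand, with matches to the core in capitals. The core is GAAA, any 2 bases and GAAA, or on the other strand TTTC, any 2 bases and TTTC. The window of IFITM3 is from chr11:320861-320940 on the minus strand, just before the start. HERC5 is from chr4:88456979-88457068, HLA-F from chr6:29723259-29723308 and MX1 from chr21:41420558-41420587, all on the plus strand. The HERC5 stretch holds 3 matches, of which the left pair overlap, and IFITM3 holds 2. The MX1 bases begin at the start site of the entry used, and the table gives other entries for MX1.
IFITM3: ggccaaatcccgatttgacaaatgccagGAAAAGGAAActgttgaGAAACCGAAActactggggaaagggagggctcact
HERC5: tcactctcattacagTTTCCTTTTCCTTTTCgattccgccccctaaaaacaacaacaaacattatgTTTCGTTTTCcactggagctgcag
HLA-F: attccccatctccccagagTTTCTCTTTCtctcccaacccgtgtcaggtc
MX1: cgagcagaaatGAAACCGAAActgaattgt

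Of the 10 called interferon genes 5 had a window in the table, and 4 of these held the core. CXCL1, the fifth, had no match. Over the interferon lists 45 of 86 windows held it (52.3%). It was present in 274 of 9654 windows of genes tested (2.84%), in 5 of 166 of the genes called higher in KO (3.01%) and in 6 of 193 of those called lower (3.11%). Over all 27305 windows of the table the share was 3.65%. These are matches of letters only.

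MX1 and IRF7 stood above wild type. MX1 (ENSG00000157601), a dynamin-like GTPase that blocks several RNA viruses, measured 577, 575 and 588 RPKM in WT and 812, 804 and 808 RPKM in KO. All 3 KO libraries were higher than any WT library, by far more than the spread within either group. The difference was 0.48 (SE 0.045, adjusted p = 7.16e-06). IRF7, the transcription factor that amplifies type I interferon production, measured 29.3, 26.6 and 29.3 RPKM in WT and 48.9, 54.8 and 52.9 RPKM in KO. The groups were well apart, with a difference of 0.86 (SE 0.114, adjusted p = 0.000263). CXCL1, a chemokine for neutrophils, was at a low level of 1.09, 1.28 and 0.99 RPKM in WT and 2.66, 2.68 and 2.30 RPKM in KO. Its groups did not overlap (difference 0.74, SE 0.145, adjusted p = 0.0074), but with a pseudocount of 0.1 it was no longer called (adjusted p = 0.205). MX2, the relative of MX1, was not called, at 231 RPKM in WT and 225 in KO.

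Among virus restriction factors, 4 of 24 tested genes were called lower and MX1 was called higher (20.8%, against 3.62% of all genes). IFITM2 and IFITM3 encode small membrane proteins that hinder the fusion of entering viruses. IFITM3 measured 1051, 1019 and 1041 RPKM in WT and 798, 862 and 889.9 RPKM in KO. The highest KO library was below the lowest WT library, and the difference was -0.29 (SE 0.0516, adjusted p = 0.00382). IFITM2 measured 329, 316 and 332 RPKM in WT and 226, 251 and 265 RPKM in KO, again with no overlap (difference -0.40, adjusted p = 0.00332). The coding sequences of the IFITM genes are near-identical in long stretches, so the split of reads between them is uncertain. IFITM1 averaged 501 RPKM in WT and 411 in KO and was not called (adjusted p = 0.0893). APOBEC3C and APOBEC3F encode cytidine deaminases that mutate viral DNA and are also close relatives of each other. APOBEC3C measured 71.8, 72.3 and 74.5 RPKM in WT and 62.0, 57.9 and 62.8 RPKM in KO, without overlap (difference -0.26, adjusted p = 0.00136). APOBEC3F averaged 7.47 ± 0.481 RPKM in WT and 5.75 ± 0.612 in KO (difference -0.33, adjusted p = 0.0284). The APOBEC3F call was lost without WT replicate 1 or 2 or KO replicate 2 or 3, with adjusted p up to 0.121, and in the fit on 6 libraries (0.166).

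HERC5, the ligase that attaches the ubiquitin-like protein ISG15 to its targets, was lower in KO. It measured 23.0, 22.8 and 21.4 RPKM in WT and 17.8, 14.8 and 17.7 RPKM in KO, with no overlap, a difference of -0.40 (SE 0.0828, adjusted p = 0.0103). The call was narrowly lost with a pseudocount of 0.1 (adjusted p = 0.0525) and without KO replicate 2 (0.0529), and in the fit on 6 libraries (0.0736). ISG15 itself measured 1118, 949.9 and 1019 RPKM in WT and 776, 821 and 826 RPKM in KO. The groups did not overlap, yet the difference of -0.35 did not pass (adjusted p = 0.133), except in the fit on 6 libraries (0.0498). The other 4 genes of the ISG15 pathway tested were not called, among them USP18, which removes ISG15, at 76.4 RPKM in WT and 81.1 in KO.

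STING1, the adaptor that signals cytosolic DNA, was the only nucleic acid sensor of 11 to be called. It measured 40.7, 40.6 and 43.7 RPKM in WT and 31.5, 35.0 and 35.3 RPKM in KO, with all KO libraries lower (difference -0.29, SE 0.0595, adjusted p = 0.0103). The call was lost without WT replicate 3 (adjusted p = 0.0594) or KO replicate 1 (0.0598), and in the fit on 6 libraries (0.0775). CGAS, the enzyme upstream of STING1, averaged 7.69 RPKM in WT and 7.01 in KO and was not called. HLA-F, a nonclassical class I molecule, was the only call among 18 genes of antigen processing and presentation. It measured 28.5, 28.3 and 31.6 RPKM in WT and 15.5, 17.2 and 15.8 RPKM in KO. All KO libraries lay below all WT libraries, and the difference was -0.83 (SE 0.151, adjusted p = 0.0044). HLA-F resembles the other class I genes in sequence, so its share of reads is uncertain. HLA-B, HLA-C and HLA-E were not called, with differences of -0.15, -0.22 and -0.04.

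Along the signalling path from the receptor to the response element, IRF7 was the only call. Of 15 genes for the receptor, JAK kinases, STATs and IRFs, 14 were not called, with 4 of the 15 under an unadjusted p of 0.05. Over all 13280 genes tested, 2256 were under it. STAT2 averaged 58.5 RPKM in WT and 57.5 in KO, and IRF9 72.1 and 77.3. None of 20 RNA-directed effectors was called, where 7 had an unadjusted p under 0.05. These include the OAS genes, which sense double-stranded RNA, and the IFIT genes, which bind foreign RNA ends. None of 12 genes of the GBP, PARP and APOL families was called either, and 1 had an unadjusted p under 0.05. Among them APOL3 had the widest gap, 5.87 RPKM in WT and 3.84 in KO (adjusted p = 0.0605).

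The genotype difference at 12 h was compared with that at the other times by a test of the change itself. For 12 h against 0 h, 10 genes passed (0.0753%), and 764 had an unadjusted p under 0.05. Of the 10, 8 were in the interferon lists. For 12 h against 48 h, none passed (0%), the smallest adjusted p was 0.107, and 904 had an unadjusted p under 0.05. In the fit on the 12 libraries of that comparison, the antiviral enzyme RSAD2 passed alone (0.52, adjusted p = 0.0364, against 0.433 in the fit on all libraries). Both tests use the same 12 h libraries.

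For IFIT1, IFIT2, IFIT3, OASL and IFI44 the knockout lay below wild type before treatment, and no difference was called at 12 h. IFIT1 measured 5.15, 3.86 and 3.94 RPKM in untreated WT and 0.81, 0.83 and 1.22 RPKM in untreated KO. At 12 h it measured 618, 649.7 and 613 RPKM in WT and 635, 629 and 621 RPKM in KO, where the groups overlapped. Its difference went from -1.44 to 0.00, a change of 1.45 (SE 0.112, adjusted p = 1.34e-05). IFI44, which interferon also induces, went from -1.43 to 0.04 and measured 206, 209 and 205 RPKM in WT and 230.2, 204 and 205 RPKM in KO at 12 h. OASL, a relative of the OAS enzymes, went from -1.25 to -0.19. At 12 h it measured 82.3, 82.8 and 83.6 RPKM in WT and 71.9, 72.2 and 73.5 RPKM in KO, without overlap but not called (adjusted p = 0.132), except in the fit on 6 libraries (0.0415). IFIT2 and IFIT3 went from -1.03 and -0.85 to -0.14 and -0.04. ISG15 and HERC5 also moved toward wild type, from -1.36 to -0.35 and from -1.07 to -0.40. Each change was lost under more than 10 of the alternatives for changes between times (adjusted p up to 0.132 and 0.178) and passed under the rest. The losses included the replicate block and most omissions of a library. At 48 h, IFIT1 (-0.31, adjusted p = 0.035) and OASL (-0.25, adjusted p = 0.0424) were called lower in KO. IFIT2, IFIT3 and IFI44 were not called at 48 h. MX1 changed sign, from -0.10 in untreated cells, where no library exceeded 0.41 RPKM and the gene was not called, to 0.48 at 12 h and 0.44 at 48 h, a change that was not called with a pseudocount of 0.1 (adjusted p = 0.133).

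**Figure D2:**
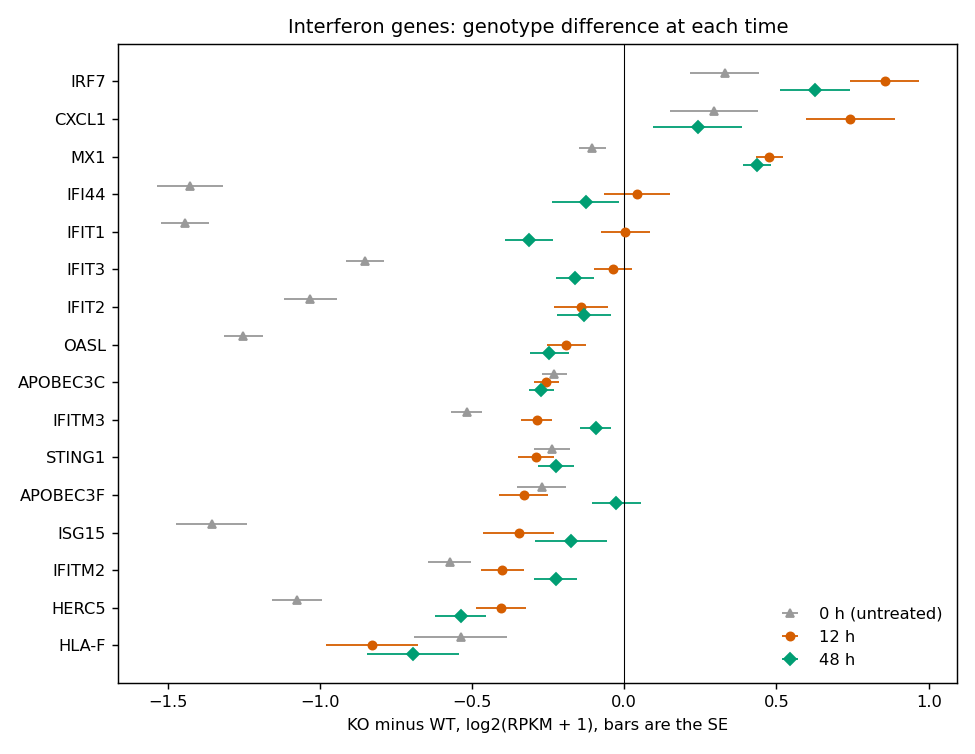
Difference between KO and WT (horizontal axis, log2(RPKM + 1)) at 0, 12 and 48 h for the interferon-list genes called at 12 h and those whose difference changed between 0 and 12 h, with bars for the SE of the fit. IFIT1, IFIT3 and IFI44 lie between -1.44 and -0.85 at 0 h and between -0.04 and 0.04 at 12 h, while IRF7 and MX1 lie to the right at 12 and 48 h.

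The largest called differences lay outside the interferon lists. Here the 12 largest in each direction were taken among called genes with a symbol whose groups did not overlap. The lack of overlap in these genes was thus a condition of their choice. FUCA2 (ENSG00000001036), a secreted alpha-L-fucosidase that trims fucose from glycans, measured 1.17, 0.97 and 0.67 RPKM in WT and 21.5, 20.8 and 22.2 RPKM in KO. No WT library exceeded 1.17 RPKM and every KO library was above 20. The difference was 3.55 (SE 0.0887, adjusted p = 4.96e-13). FUCA1, the lysosomal enzyme of the same activity, averaged 3.35 RPKM in WT and 3.33 in KO. NALF2 (ENSG00000130054), an auxiliary protein of the NALCN sodium leak channel, measured 0.12, 0.18 and 0.28 RPKM in WT and 9.17, 8.51 and 8.72 RPKM in KO. It was close to undetected in WT and clearly present in KO (difference 3.04, SE 0.0827, adjusted p = 9.12e-13). On the other side, PODXL2 (ENSG00000114631), a podocalyxin-like sialomucin, measured 7.95, 6.84 and 7.38 RPKM in WT and 0.73, 0.53 and 0.98 RPKM in KO. Each KO library was under 1 RPKM (difference -2.27, SE 0.103, adjusted p = 1.45e-09). TSTD1, a thiosulfate sulfurtransferase, measured 11.7, 8.38 and 9.68 RPKM in WT and 2.10, 2.19 and 2.36 RPKM in KO, a difference of -1.75 (SE 0.157, adjusted p = 4.38e-06) without overlap. All 4 were called in the same direction at 0 and 48 h and under every alternative in which they were tested, 12 for FUCA2 and TSTD1 and 11 for NALF2 and PODXL2, whose mean over the 18 libraries was under 5 RPKM.

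These 4 genes carried the widest differences in each direction among called genes with a symbol and no overlap between groups. The 100 bases before their starts are therefore shown. They come from the same RefSeq table (GRCh38.p14), 5′ to 3′ along the transcribed strand, with each CG in capitals. The last C of FUCA2 and of PODXL2 is a capital because its G lies just past the printed stretch. FUCA2 is from chr6:143511721-143511820 on the minus strand and NALF2 from chrX:69504226-69504325 on the plus strand. PODXL2 is from chr3:127629085-127629184 on the plus strand and TSTD1 from chr1:161038965-161039064 on the minus strand.
FUCA2: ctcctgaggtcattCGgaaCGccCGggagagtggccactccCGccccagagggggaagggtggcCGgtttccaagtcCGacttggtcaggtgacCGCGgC
NALF2: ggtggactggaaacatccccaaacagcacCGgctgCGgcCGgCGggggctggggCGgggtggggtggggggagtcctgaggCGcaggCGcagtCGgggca
PODXL2: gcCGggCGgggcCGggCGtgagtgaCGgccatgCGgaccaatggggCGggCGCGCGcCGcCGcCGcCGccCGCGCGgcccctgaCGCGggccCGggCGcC
TSTD1: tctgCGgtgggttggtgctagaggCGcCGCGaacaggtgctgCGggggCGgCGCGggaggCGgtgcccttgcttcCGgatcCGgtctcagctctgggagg

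In the full window of 300 bases FUCA2 had 20 CG, NALF2 25, PODXL2 57 and TSTD1 21, and none of the 4 held the response element core. The median was 26 CG over the windows of all genes tested, 25 for the genes called higher and 24 for those called lower. The interferon lists had fewer, a median of 13.5. By this count the medians of called and tested genes lay within 2 CG of each other.

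Of the other 10 genes with the largest rises, several went from low levels to a few RPKM. CLMP, an adhesion molecule of epithelial junctions, measured 0.11, 0.10 and 0 RPKM in WT and 2.35, 2.07 and 2.07 RPKM in KO. It was thus detected at 2 RPKM or more only in KO (difference 1.56, SE 0.109, adjusted p = 3.21e-07). SLCO1B3, an uptake transporter of organic anions best known from liver, measured 0.12, 0.06 and 0.08 RPKM in WT and 1.75, 1.84 and 2.07 RPKM in KO. ARMCX1, a protein of the mitochondrial outer membrane, measured 0.48, 0.80 and 0.71 RPKM in WT and 3.32, 3.01 and 3.61 RPKM in KO. Both were apart without overlap, by 1.41 and 1.38 (adjusted p = 5.43e-06 and 4.49e-06). BANF1P3, a processed pseudogene, was listed at 0 in all 3 WT libraries and at 0.96, 2.93 and 1.94 RPKM in KO (adjusted p = 0.0161). As a copy of BANF1 its reads are uncertain, and its call was lost without WT replicate 1 or 3 or KO replicate 2 or 3 (adjusted p up to 0.0775). It was not called at 0 or 48 h.

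Higher up the scale, THBD, the endothelial and epithelial receptor thrombomodulin that turns thrombin toward protein C, measured 2.77, 3.26 and 3.04 RPKM in WT and 7.22, 7.18 and 7.71 RPKM in KO. GNB4, a G protein beta subunit, measured 13.8, 14.4 and 11.9 RPKM in WT and 29.8, 27.0 and 28.9 RPKM in KO. TAF7, a subunit of the general transcription factor TFIID, measured 10.5, 11.0 and 10.6 RPKM in WT and 23.5, 21.2 and 23.2 RPKM in KO. In all 3 genes every KO library was above every WT library, with differences of 1.06, 1.04 and 1.01 (adjusted p = 6.24e-07, 6.11e-07 and 6.09e-08). SLC6A11, a transporter of the neurotransmitter GABA, averaged 4.66 ± 0.116 RPKM in WT and 10.5 ± 0.305 in KO (difference 1.03). DDX19B, an RNA helicase of mRNA export, averaged 6.73 ± 1.3 and 16.3 ± 0.733 RPKM (difference 1.18). DDX19B has the near-identical relative DDX19A beside it, so its share of reads is uncertain. The long noncoding RNA LINC02434 averaged 0.893 ± 0.272 and 3.07 ± 0.418 RPKM (difference 1.11).

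Among the genes lowest in KO were several that dropped under 0.5 RPKM. CDH8, a classical cadherin, measured 2.38, 1.84 and 2.33 RPKM in WT and 0.15, 0.03 and 0 RPKM in KO. MID2, a TRIM-type ubiquitin ligase of microtubules, measured 1.85, 1.55 and 1.81 RPKM in WT and 0, 0.03 and 0.09 RPKM in KO. Both were nearly off in all KO libraries, with differences of -1.58 and -1.40 (adjusted p = 0.000173 and 6.24e-07). IQCA1, an ATPase-family protein of cilia, averaged 1.47 ± 0.128 RPKM in WT and 0.0133 ± 0.0115 in KO (difference -1.28). GPR50, an orphan receptor related to the melatonin receptors, averaged 2.44 ± 0.183 and 0.297 ± 0.0252 RPKM (difference -1.40). DNAJA4, a co-chaperone of HSP70, averaged 3.11 ± 0.446 and 0.29 ± 0.04 RPKM (difference -1.67).

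Other genes fell to a fraction of their wild-type level. C3orf14 measured 18.3, 18.8 and 13.9 RPKM in WT and 5.16, 4.20 and 3.98 RPKM in KO. HACD4, a dehydratase in the synthesis of very long fatty acids, measured 4.70, 4.94 and 4.30 RPKM in WT and 0.49, 0.88 and 0.93 RPKM in KO. Neither gene's groups overlapped, and the differences were -1.72 and -1.68 (adjusted p = 4.38e-06 and 1.04e-07). TGM2, the tissue transglutaminase that crosslinks matrix proteins, measured 3.45, 3.97 and 3.61 RPKM in WT and 0.91, 0.62 and 0.89 RPKM in KO (difference -1.37, adjusted p = 6.02e-06). HSD11B1, which makes active cortisol from cortisone, measured 9.55, 10.3 and 10.7 RPKM in WT and 4.73, 2.93 and 4.13 RPKM in KO (difference -1.20, adjusted p = 6.77e-05). TGM1, the transglutaminase of the cornified envelope, was not called, at 11.9 RPKM in WT and 13.4 in KO.

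**Figure D3:**
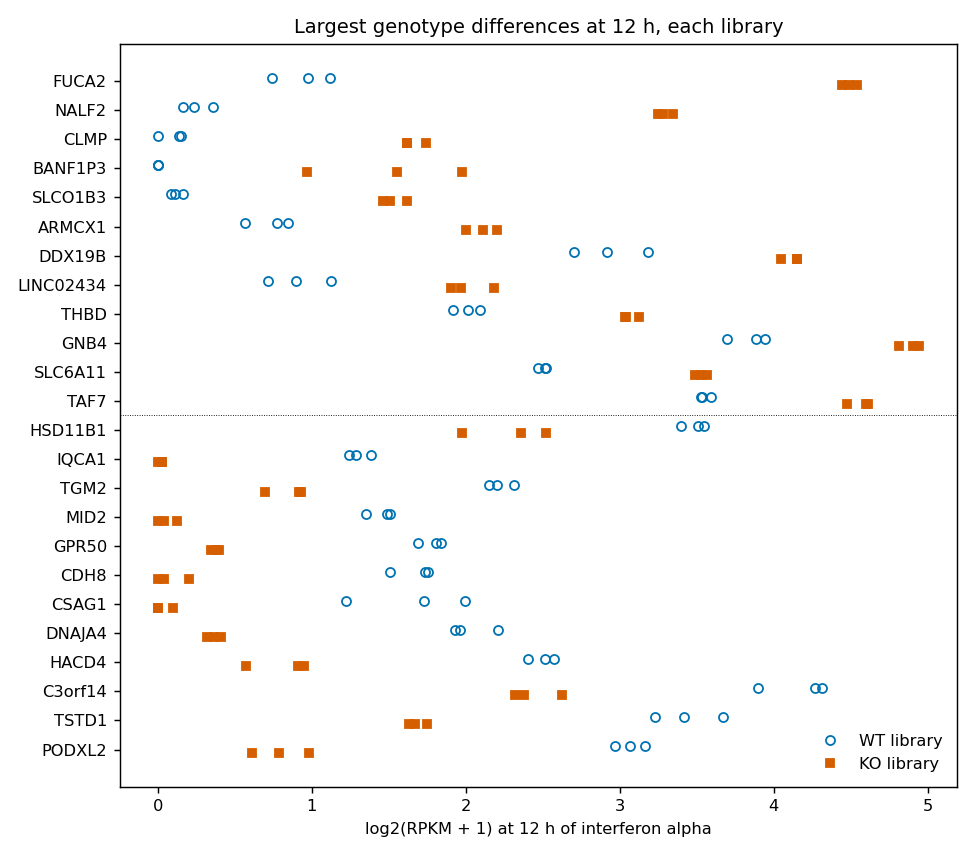
Level in each library at 12 h (horizontal axis, log2(RPKM + 1)) for the 12 largest rises in KO, above the dotted line, and the 12 largest falls. Rows were taken among called genes with a symbol and no overlap between groups, so no row could overlap. Open circles are the 3 WT libraries and filled squares the 3 KO libraries.

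Some called genes were neighbours. Gene order came from the RefSeq table of GRCh38.p14 and was used for 12266 tested genes (92.4%), 458 of them called. Runs of adjacent called genes with the same direction numbered 19 and held 41 genes, 12 higher and 29 lower in KO. Of the adjacent called pairs 22 went the same way and 3 in opposite ways. The longest run was SERINC2, TINAGL1, PEF1 and COL16A1 on chromosome 1, all lower in KO with differences of -0.29, -0.75, -0.65 and -0.78, and all called at 0 and 48 h too. TINAGL1, a matricellular protein, measured 85.9, 79.5 and 89.1 RPKM in WT and 50.5, 48.4 and 51.3 RPKM in KO. The LGALS7, LGALS7B and ECH1 run on chromosome 19 was lower by -0.59, -0.68 and -0.34, but LGALS7 and LGALS7B are near-identical copies of galectin 7. The imprinted neighbours H19 and IGF2 on chromosome 11 were both lower. H19, a noncoding RNA, measured 17.3, 21.8 and 19.9 RPKM in WT and 11.3, 13.6 and 10.7 RPKM in KO (difference -0.69, adjusted p = 0.00161). NALF2 had its neighbour EDA, the ectodysplasin ligand of hair and sweat gland development, beside it, at a mean of 0.19 RPKM in WT and 0.817 in KO (difference 0.61, adjusted p = 0.0123).

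The clearest pair were CSAG1 and MAGEA12 on chromosome X, cancer-testis genes that are normally active in the germ line and in some tumours. CSAG1 measured 1.33, 2.98 and 2.31 RPKM in WT and 0.07, 0 and 0 RPKM in KO (difference -1.61, adjusted p = 2.51e-05). MAGEA12 measured 0.99, 1.44 and 0.68 RPKM in WT and was listed at 0 throughout KO (adjusted p = 0.000633). Both were called lower at all 3 times. Their starts face away from each other, with 35 bases between them, at chrX:152733722-152733756 (GRCh38.p14, plus strand, RefSeq, each CG in capitals). This stretch is shown because both promoter windows share it. RefSeq gives 2 starts for MAGEA12, and the gap applies to the start used here.
CSAG1-MAGEA12: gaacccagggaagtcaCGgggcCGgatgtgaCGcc
Of the 26 cancer-testis genes listed, 4 were tested. The other 2 were not called, with differences of -0.30 for MAGED1 and -0.18 for MAGED2, and both are broadly expressed. MAGEA and CSAG genes have close copies on the X chromosome, so their share of reads is uncertain.

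Among HOX genes, which mark position along the body, 3 of 15 were higher in KO (20%, against 1.6% of all genes) and all came from the HOXD cluster. HOXD11 measured 3.46, 2.87 and 3.39 RPKM in WT and 6.33, 6.33 and 6.52 RPKM in KO. HOXD10, its neighbour, measured 6.21, 5.75 and 7.10 RPKM in WT and 10.8, 11.1 and 10.8 RPKM in KO. Both were apart without overlap (differences 0.80 and 0.70, adjusted p = 4.14e-05 and 0.000317) and were called at all 3 times. HOXD8 was higher by 0.32 (adjusted p = 0.0357), a call lost without WT replicate 1 or 2 or any KO replicate (adjusted p up to 0.16), in the fit on 6 libraries (0.112) and with the replicate block (0.06). HOXD9, which lies between them, averaged 1.85 RPKM in WT and 1.80 in KO. Chromosome 7 held more calls than the 3.62% over all genes, 29 higher and 4 lower of 570 genes (5.79%), and its median difference was 0.09 (12 h), 0.10 (0 h) and 0.07 (48 h).

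Keratinocyte identity genes showed scattered calls. The called share was 6.25% of basal, 6.25% of differentiation and 20% of stress keratin genes, against 3.62% of all genes tested. Of 16 basal and hemidesmosome genes 1 was called, the desmosomal cadherin DSG3, 71.1 ± 1.25 RPKM in WT and 82.5 ± 2.18 in KO (difference 0.21, adjusted p = 0.0337). The DSG3 call was lost when any of the 6 libraries was left out (adjusted p 0.0684 to 0.122). KRT5 and KRT14, the keratins of the basal layer, had differences of -0.02 each. Of 16 differentiation genes 1 was called, KLK5, a kallikrein protease of desquamation. It measured 26.6, 23.8 and 27.5 RPKM in WT and 36.0, 36.5 and 44.5 RPKM in KO, with no overlap (difference 0.56, SE 0.0835, adjusted p = 0.000713). IVL and TGM1, markers of the cornified envelope, were not called. Among 10 stress and simple-epithelial keratins, KRT8 was higher (0.23, adjusted p = 0.0124) and KRT81 lower (-0.77, adjusted p = 0.0224). KRT8 was lost without WT replicate 2 (adjusted p = 0.0547) or KO replicate 3 (0.0654), and in the fit on 6 libraries (0.159). KRT81, a hair keratin with the close copy KRT86 beside it, was lost without WT replicate 1 or 3 or KO replicate 1 or 2 (up to 0.0926).

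S100 genes, calcium-binding proteins of the epidermal differentiation region, were lower where called. S100A8, a chain of the alarmin calprotectin, measured 47.4, 50.4 and 56.7 RPKM in WT and 30.6, 39.8 and 37.1 RPKM in KO. S100A9, its partner, measured 164, 157 and 172 RPKM in WT and 113, 118 and 123 RPKM in KO. S100A6 measured 2032, 2104 and 2015 RPKM in WT and 1586, 1646 and 1640.3 RPKM in KO. None of the 3 overlapped between groups, with differences of -0.52, -0.48 and -0.34 (adjusted p = 0.00608, 0.000217 and 0.000246). In the fit on 6 libraries S100A8 was not called (0.0836). The other 9 S100 genes tested were not called, and the median over the list was -0.07. The called genes made 25% of the list, against 3.62% of all genes tested. The groups did not overlap in 58.3% of the list, against 21% of all genes.

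Matrix and mesenchymal genes were lower where called, beside the lower sum of the fibroblast list in KO. VIM, the intermediate filament vimentin, measured 309.8, 316 and 316 RPKM in WT and 236.5, 220.4 and 226 RPKM in KO. FN1, fibronectin, measured 305, 311 and 301 RPKM in WT and 261, 219 and 256 RPKM in KO. Both were apart without overlap (differences -0.46 and -0.32, adjusted p = 6.24e-07 and 0.018). FN1 was lost without any of the WT replicates (adjusted p up to 0.0603) or KO replicate 2 (0.0809), and in the fit on 6 libraries (0.0834). These were 2 of the 10 tested genes of the fibroblast list (20%, against 3.62% of all genes), and they make most of its sum. COL1A1, a defining collagen of fibroblasts, was at 1.95 RPKM in WT with a difference of 0.28 that was not called, and SPARC at 118 RPKM in WT and 111 in KO. The part of fibroblast-like or feeder cell RNA in these differences was not tested. In bulk RNA, fewer cells of a type and less RNA per cell cannot be told apart.

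The list of coagulation, plasminogen and matrix protease genes had the most called members, 2 higher and 5 lower of 21 (33.3%, against 3.62% of all genes). Its median was -0.14. MMP2, the gelatinase A, measured 12.3, 10.5 and 12.3 RPKM in WT and 6.85, 4.18 and 5.30 RPKM in KO, the widest fall of the list (difference -0.996, SE 0.128, adjusted p = 0.000202). MMP14, the membrane protease that activates MMP2, measured 159, 159 and 164 RPKM in WT and 127, 126 and 133 RPKM in KO, without overlap (difference -0.32, adjusted p = 0.000445). MMP1, an interstitial collagenase, differed by -0.38 (adjusted p = 0.0355), and the inhibitors TIMP2 and TIMP3 by -0.30 and -0.19 (adjusted p = 0.0159 and 0.00273). MMP1 was lost without WT replicate 2 or 3 or any KO replicate (adjusted p up to 0.123). TIMP2 was lost without WT replicate 1 or 2 or KO replicate 2 (up to 0.0931), and in the fit on 6 libraries (0.169), where TIMP3 was lost as well (0.0591). The higher genes were THBD and SERPINB2, an inhibitor of plasminogen activators. SERPINB2 measured 48.8, 50.6 and 53.1 RPKM in WT and 66.5, 67.1 and 76.8 RPKM in KO, with all KO libraries above WT (difference 0.45, adjusted p = 0.00348).

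**Figure D4:**
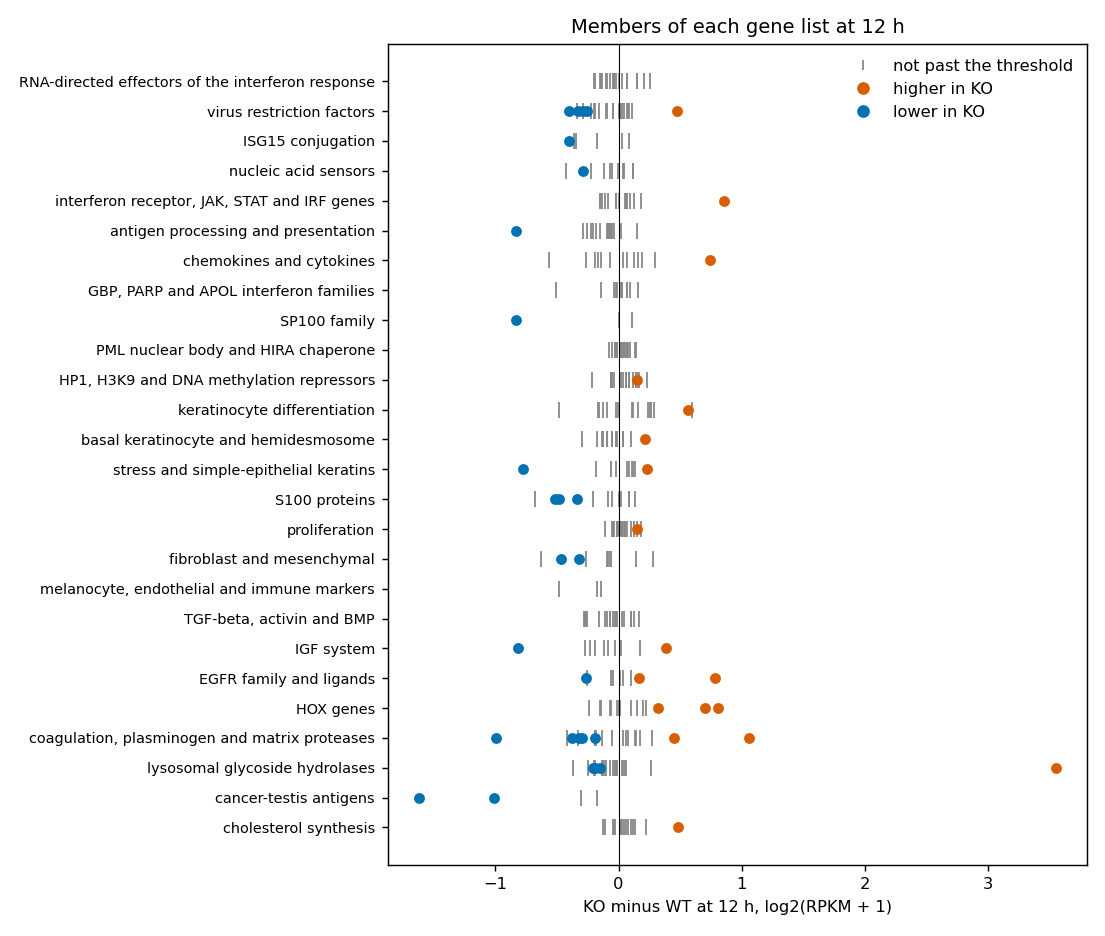
Difference between KO and WT at 12 h (horizontal axis, log2(RPKM + 1)) for every tested member of the 26 gene lists, 1 mark per gene. Grey ticks were not called, orange points were called higher in KO and blue points lower, so that FUCA2 stands alone at 3.55 and most interferon genes lie within 0.5 of zero.

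Growth factor genes moved in both directions. Among 9 genes of the EGF receptor family, 33.3% were called, against 3.62% of all genes tested. The receptor EGFR was higher by 0.16 (adjusted p = 0.0362), its ligand EPGN higher and its ligand AREG lower. EPGN, epithelial mitogen, measured 5.69, 6.76 and 6.16 RPKM in WT and 9.37, 13.5 and 11.7 RPKM in KO (difference 0.78, adjusted p = 0.017). AREG, amphiregulin, measured 388, 415 and 381 RPKM in WT and 349, 309 and 331 RPKM in KO (difference -0.26, adjusted p = 0.00416). The genotypes did not overlap for either ligand. EGFR was lost when any of the 6 libraries was left out (adjusted p 0.0714 to 0.139), EPGN without WT replicate 1 or 3 or KO replicate 2 or 3 (up to 0.08), and AREG in the fit on 6 libraries (0.0839). In the insulin-like growth factor system, IGF2 was lower and its binding protein IGFBP2 higher of 10 tested (20%, against 3.62% of all genes). IGF2 measured 0.91, 1.38 and 1.09 RPKM in WT and 0.14, 0.21 and 0.27 RPKM in KO, without overlap (difference -0.81, adjusted p = 0.000263). The IGF2 gap was wider in untreated cells (-1.71), and the change between 0 and 12 h was 0.89 (adjusted p = 0.0458). This change was lost under more than 10 of the alternatives for changes between times. Among these were a pseudocount of 0.1 (adjusted p = 0.753), the fit on the libraries of the comparison (0.201) and most omissions of a single library. IGFBP2 measured 80.3, 73.6 and 76.9 RPKM in WT and 96.5, 103 and 103 RPKM in KO (difference 0.38, adjusted p = 0.00443). None of 21 genes of TGF-beta, activin and BMP signalling was called at 12 h. An unadjusted p under 0.05 was seen in 4 of the 21, against 2256 of all 13280 genes tested. In this list the activin subunit INHBA measured 7.56, 8.41 and 9.12 RPKM in WT and 8.47, 7.71 and 7.95 RPKM in KO, with overlap, after a difference of -0.64 at 0 h.

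Proliferation genes differed little, from -0.11 to 0.18 with a median of 0.02. Of 22 tested, MCM6, a subunit of the replicative helicase, was the only call (39.6 ± 0.749 RPKM in WT and 44.1 ± 0.92 in KO, difference 0.15, adjusted p = 0.0359). MCM6 was lost when any of the 6 libraries was left out (adjusted p 0.0541 to 0.142). MKI67, the Ki-67 antigen of cycling cells, averaged 28.6 RPKM in WT and 31.9 in KO and was not called. Of 18 cholesterol synthesis genes, only HMGCS1, the synthase before the rate-limiting step, was called at 12 h, where 8 were called higher at 0 h. HMGCS1 measured 14.0, 18.7 and 14.4 RPKM in WT and 20.2, 24.9 and 21.8 RPKM in KO (difference 0.49, adjusted p = 0.00637), and was lost in the fit on 6 libraries (0.143). Of 23 lysosomal genes, FUCA2 was higher and CTSL, CTSA and LAMP1 slightly lower. The called share was 4.5% of proliferation, 5.56% of cholesterol and 17.4% of lysosomal genes, against 3.62% of all genes tested. CTSL, cathepsin L, measured 203, 209 and 204 RPKM in WT and 182, 175 and 177 RPKM in KO (difference -0.21, adjusted p = 0.00136). CTSA, a carboxypeptidase, and LAMP1, a membrane protein of lysosomes, differed by -0.19 and -0.15 (adjusted p = 0.0136 and 0.0098). CTSA was lost without WT replicate 1 or 3 or KO replicate 3 (adjusted p up to 0.0809) and in the fit on 6 libraries (0.139), where LAMP1 was lost as well (0.0775).

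Many of the genes called at 12 h were also called in untreated cells and at 48 h. The KO against WT comparisons at 0 and 48 h take their means from other libraries, with the same shared estimate of spread. They called 650 genes (4.89%) and 556 genes (4.19%). At 0 h 2.82% were higher in KO and 2.07% lower, and at 48 h 2.03% and 2.16%. Of the 213 genes higher at 12 h, 107 were higher at both other times, 30 at 0 h only, 9 at 48 h only and 67 at neither. Of the 268 lower genes, 117 were lower at both, 26 at 0 h only, 27 at 48 h only and 98 at neither. None of these genes called at 12 h was called in the opposite direction at 0 or 48 h. The higher genes had a median difference of 0.37 (12 h), 0.30 (0 h) and 0.28 (48 h). The lower genes had medians of -0.44, -0.28 and -0.30.

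Genes called at 12 h alone were not shown to differ between times. For the 67 higher genes the medians were 0.27 (12 h), 0.12 (0 h) and 0.08 (48 h), and 54 had the same sign at all times. For the 98 lower genes the medians were -0.37, -0.13 and -0.13, and 81 had the same sign at all times. None of these genes passed the test of 12 h against either other time. KRT81 was an example, with differences of -0.77 (12 h), -0.07 (0 h) and -0.18 (48 h), and an adjusted p of 0.752 for 12 h against 0 h. CXCL1 was at 0.74, 0.30 and 0.24, with an adjusted p of 0.858 for the same test.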

How the data were processed

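RNA was sequenced from stranded mRNA libraries of 18 cultures in 6 groups of 3, per the labels' protocols. The authors deposited 1 table of RPKM values for 16472 Ensembl genes, rounded to 2 decimals. The submitters' processing notes name cutadapt, STAR 2.6.1, RSEM 1.3.0, limma 3.50.3 and the build hg19, with no role or order. The gene filter, annotation and strand setting were not given in the sources used here.

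From the deposited RPKM, log2(RPKM + 1) was computed. Genes with at least 1 RPKM in at least 3 libraries were tested (13280, of which 12401 had a symbol in the table of gene names given). A model with a mean for each group was fitted to all 18 libraries with limma 3.58.1 (R 4.3.3), with a mean trend in the variances, Benjamini-Hochberg adjustment and a threshold of 0.05. Because 3 libraries a group give few degrees of freedom, the 6 groups shared an estimate of spread. The model was tested on simulated data. The depth in reads is unknown, so no counting interval was computed, and relative depth came from the spacing of low values.

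The members and the gene lists were chosen with earlier results of these data known, so no count over a list is independent evidence. Named genes were SP100, PML, DAXX, ATRX and HIRA, the 12 largest called differences in each direction with a symbol and no overlap between groups, every called list member, and every gene that passed a test between times. Genes in runs of neighbours, genes of the lists that were not called, and DHX58, UBA7, PNPT1, IFI16, RSAD2 and H19 were named after their values were seen. Promoter windows and gene order came from RefSeq tables of GRCh38.p14, and since the values were made on hg19 they describe sequence and order only. Results were recomputed with median-of-ratios scaling, a pseudocount of 0.1, a minimum mean of 5 RPKM, no filter, a replicate block, only the libraries of the comparison, and the omission of each library.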

Additional observations from a re-analysis of the deposited data

Results flagged for a closer look

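The genotype difference (KO minus WT) at 12 h differed from that at 0 h in 10 genes by a test of the change itself in limma. The change, on the log2(RPKM + 1) scale, was 1.47 for IFI44, 1.45 for IFIT1, 1.06 for OASL, 1.01 for ISG15, 0.889 for IFIT2, 0.814 for IFIT3, 0.67 for HERC5 and 0.581 for MX1. Outside the interferon lists it was 0.892 for IGF2 and 0.595 for INHBA. All 10 changes were positive. In 9 genes the knockout lay below wild type at 0 h with an adjusted p under 0.05, and MX1 was the exception. The IFI44, IFIT1, OASL, IFIT2 and IFIT3 changes passed under every alternative run, and MX1 missed the threshold under a single alternative. The ISG15, HERC5, IGF2 and INHBA changes were lost under more than 10 of the alternatives for changes between times each, and passed under the rest that tested them. Untreated levels were low: OASL measured 3.25, 2.49 and 2.54 RPKM in WT and 0.56, 0.52 and 0.64 RPKM in KO at 0 h, where the scale understates changes. The same libraries at 12 h enter every one of these changes.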

How the results depend on the processing

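No called result changed direction under the alternatives. Differences at 12 h that were not called crossed 0 for IFIT1 (-0.01 to 0.03), IFI44 (-0.02 to 0.07), PML (-0.07 to 0.05), HIRA (-0.003 to 0.06) and INHBA (-0.11 to 0.01), as did the IFIT2 change between 12 and 48 h (-0.11 to 0.12). Fitting each comparison on its own libraries gave 213 calls at 12 h (81 higher, 132 lower), 6 genes that differed between 12 and 0 h, and 1 between 12 and 48 h. This fit has fewer degrees of freedom. Calls of at least 2-fold numbered 89 with a pseudocount of 0.1 and 11 with a mean RPKM of at least 5, where fewer genes are tested. Leaving out each library in turn gave 311 to 448 calls, 136 to 209 higher and 174 to 239 lower. The lowest counts of higher genes were 137 and 136 without WT replicates 1 and 3, and 138 and 140 without KO replicates 1 and 3. The same omissions gave 3 to 5 interferon genes higher (5 without WT replicate 2), 6 to 9 genes that differed between 12 and 0 h, and none between 12 and 48 h. The low of 6 came without KO replicate 3 at 12 h or KO replicate 1 or 2 at 0 h. The lone pair left in a group was assumed to vary like the other groups. Of the 65 named genes called at 12 h, 43 were called under every alternative in which they were tested (12, or 11 for a mean under 5 RPKM) and 22 were lost under at least 1. Replicate numbers did not pair the libraries: the deviations of same-numbered KO and WT libraries at 12 h correlated at -0.00406, -0.0942 and -0.0554. With the replicate number as a block, 394 genes were called, 381 of them among the 481. Median-of-ratios scaling gave 519 calls, 39.9% of them higher against 44.3%. With 1 line per genotype and 3 libraries a group, line and genotype cannot be told apart, and low genes carry the least certain fold changes.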
